A study of Mus musculus with 6 samples.

Results

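The collagen crosslinking and modifying enzymes examined here are the lysyl oxidases Lox, Loxl1, Loxl2, Loxl3 and Loxl4, the lysyl hydroxylases Plod1, Plod2 and Plod3, the prolyl 4-hydroxylase subunit P4ha3 and the transglutaminase Tgm2. They were taken by gene symbol, and all 10 were among the 17973 mRNAs of the count table and among the 15808 that passed the filter on low counts. Whole lungs of C57BL/6 mice gave total RNA for 3 silicosis libraries, called N129, N136 and N138, and 3 control libraries, called C7, C8 and C9. Silicosis lungs had been instilled once through the trachea with 8 mg of silica, suspended in 40 µL of saline, the series text describes the control samples as sterile saline, and lungs of both groups were frozen after 90 days. No allele, Cre or transgene is named for either group, and no source used here gives the sex or age of the mice. Whether each library is a separate mouse is not stated either, so the p-values rest only on the spread between samples, which may be technical.

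A collagen chain is modified inside the cell and crosslinked outside it. In the endoplasmic reticulum, prolyl 4-hydroxylases hydroxylate prolines, which keeps the triple helix stable at body temperature, and lysyl hydroxylases hydroxylate lysines, which sets the kind of crosslink that can form later. After secretion and trimming of the propeptides, the copper-dependent lysyl oxidases convert lysines and hydroxylysines of collagen and elastin into aldehydes that join neighbouring molecules, while transglutaminases bond glutamines to lysines in fibronectin, collagen and other matrix proteins. Scarred lung is known for stiff, heavily crosslinked collagen.

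The enzymes did not move as a block. P4ha3 and Lox rose in silicosis by 7.61-fold and 2.11-fold, and Loxl1 fell to 0.702 of its control level. Loxl2 and Loxl3 rose by 1.57-fold and 1.35-fold. Their calls lay near the threshold and held in 3 and 2 of the 6 fits that each left out 1 library and so had less data. Without N138 both calls ended, although that fit called 5209 mRNAs in all, against 5023 with all libraries. Loxl4, the 3 Plod genes and Tgm2, the most abundant of the enzymes per transcript length, did not pass the test. By the edgeR quasi-likelihood test at an adjusted p under 0.05, 4 of the 10 were higher, against 15.3% of all tested mRNAs, and 1 of the 10 was lower, against 16.5%. Past a 2-fold change as well were 2 of the 10, beside 8.42% of all tested mRNAs. In either direction 31.8% of all tested mRNAs were called. The silicosis and control libraries did not overlap for 5 of the 10, beside 47.7% of all tested mRNAs. The median log2 fold change was 0.15 over the 10 genes and 0.02 over all tested mRNAs. The enzymes were chosen with earlier results of these data known, so these comparisons with all tested mRNAs are descriptions. In bulk lung RNA, a change in the number of cells that express a gene and a change in RNA per cell cannot be told apart.

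The mRNA table held between 33698920 and 43735169 counts per silicosis library and between 39702310 and 44000748 per control library, and the 10 enzymes together held between 27486 and 37659 counts in silicosis libraries and between 25803 and 34574 in control libraries. Levels below are CPM, counts scaled to a library total of 1000000, unless said otherwise. As to the labelled tissue, each of the 7 lung epithelial markers passed the filter; 3 were lower in silicosis (Ager, Scgb1a1 and Sftpb) and 0 higher. Their summed level was 18243 to 22588 CPM in silicosis and 24542 to 32380 CPM in control libraries, of which the club cell gene Scgb1a1 averaged 5541 CPM in silicosis and 12529 CPM in control, while the log2 fold change of Sftpc was -0.05. Tcf21, Npnt and the other resting fibroblast markers were lower in silicosis for 9 of 9 genes, with summed levels of 1441 to 1894 CPM against 4184 to 4341 CPM in control. Of 9 tested activated fibroblast markers 5 were higher, and the summed level was 1256 to 1666 CPM in silicosis against 565 to 635 CPM in control. Most of that gap was Spp1, which macrophages also make (573 to 928 CPM in silicosis, 25.6 to 28.6 CPM in control). Without Spp1, left out after its values were seen, the sum was 622 to 781 CPM in silicosis and 539 to 607 CPM in control, and Acta2, Postn, Cthrc1 and Tagln (log2 fold changes -0.15, -0.02, -0.18 and -0.88) did not pass. Of 8 smooth muscle markers 7 were lower, with 388 to 459 CPM against 664 to 872 CPM in control, and of 9 endothelial markers 7 were lower, with 2235 to 2432 CPM against 4042 to 4471 CPM in control. Macrophage markers were higher for 7 of 11 and lower for 1, with 909.5 to 1422 CPM in silicosis and 517 to 574 CPM in control. Mesothelial markers were lower for 4 of 6, with 141 to 182 CPM in silicosis against 216 to 239 CPM in control. Markers of other tissues were also measured: 3 of 4 tested adipocyte genes were higher (35.8 to 86.4 CPM in silicosis, 11.0 to 23.4 CPM in control), as were 3 of 9 striated muscle genes (301 to 695 CPM in silicosis, 244 to 582 CPM in control) and 1 of 4 cartilage and bone genes (35.5 to 47.2 CPM in silicosis, 25.2 to 36.4 CPM in control). The 3 striated muscle genes were uneven among silicosis libraries: Acta1 had 14, 1650 and 2628 counts and Myh1 2, 476 and 785 counts in N129, N136 and N138, whereas Nppa had 133, 13 and 23. In control libraries none of the 3 exceeded 43 counts. The part of these cell types in the enzyme results was not tested.

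**Figure D1:**
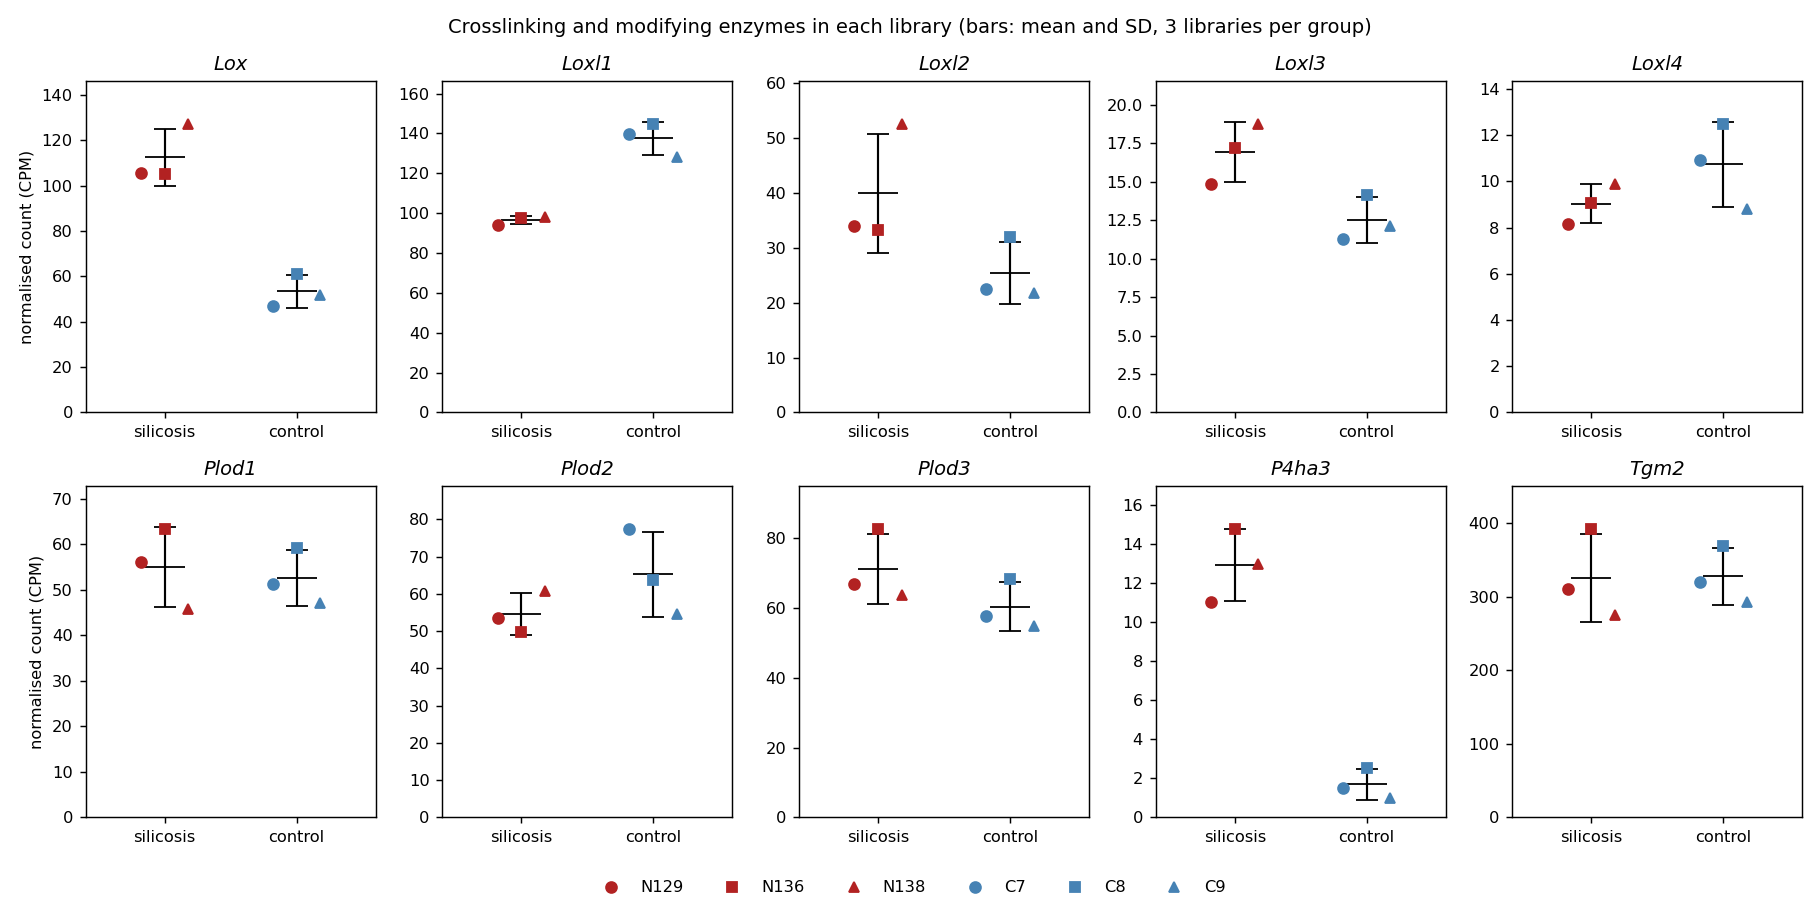
Normalised counts (CPM, linear axis from 0) of the 10 enzymes in each silicosis and control library; points are libraries, horizontal marks the group means and bars the SD of 3 libraries. The groups separate widely for P4ha3 (11.0 to 14.7 CPM in silicosis, 1.02 to 2.54 CPM in control) and Lox, in the other direction for Loxl1, narrowly for Loxl2 and Loxl3, and overlap for the other 5.

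Among the oxidases, Lox encodes the founding lysyl oxidase, which acts on fibrillar collagens and elastin. It was measured at 105 CPM in N129, 105 CPM in N136 and 127 CPM in N138, against 47.0, 61.2 and 51.9 CPM in C7, C8 and C9. All 3 silicosis libraries lay above all controls, and the lowest silicosis library was 1.71 times the highest control. The means were 112 ± 12.6 CPM in silicosis and 53.4 ± 7.18 CPM in control (SD, n = 3 each), a log2 fold change of 1.08 with an SE of 0.12 (edgeR adjusted p = 0.000387). None of the 50-base windows taken from the longest Lox transcript occurs in a transcript of another annotated gene, the other oxidases included. The antisense gene AC161119.1 overlaps Lox on the opposite strand and is not among the mRNAs counted.

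Loxl1, the family member known for its part in elastic fibre upkeep, ran the other way. Its level was 94.2, 97.4 and 97.96 CPM in N129, N136 and N138, against 139.8, 145 and 128 CPM in C7, C8 and C9. The 3 silicosis libraries were close together, with a coefficient of variation of 2.10%, and all lay below the lowest control. The log2 fold change was -0.51 (SE 0.09, 95% confidence interval -0.70 to -0.32, edgeR adjusted p = 0.00232). Eln, the elastin gene that Lox and Loxl1 act on as protein, went in the direction of Lox: it averaged 245 CPM in silicosis and 134 CPM in control (log2 fold change 0.87, SE 0.12).

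Loxl2 encodes an oxidase with scavenger receptor domains that also crosslinks basement membrane collagen. It stood at 33.9 CPM in N129, 33.3 CPM in N136 and 52.5 CPM in N138, against 22.6, 31.9 and 21.8 CPM in C7, C8 and C9. N138 was far above the other 2 silicosis libraries, and C8 came within a few percent of N136, so that the groups were barely apart. The log2 fold change was 0.65 (SE 0.21, edgeR adjusted p = 0.0413). The call ended without N138, at a log2 fold change of 0.41 and an adjusted p of 0.0907, and also without C7 (0.57, adjusted p = 0.128) or without C9 (0.55, adjusted p = 0.13). Of the 50-base windows of the longest Loxl2 transcript, 45.6% also occur in transcripts of other annotated genes, among them Gm21451, Gm27177 and Gm16867, so its count is uncertain.

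Loxl3, a related oxidase with the same domain type, had 14.9, 17.2 and 18.8 CPM in N129, N136 and N138, against 11.3, 14.1 and 12.1 CPM in C7, C8 and C9. The lowest silicosis library was 1.05 times the highest control. Its log2 fold change was 0.44 (SE 0.14, edgeR adjusted p = 0.045), just inside the threshold. The call ended when N136, N138, C7 or C9 was left out, with adjusted p of 0.0905, 0.0965, 0.146 and 0.106, and when no filter on low counts was used (0.0524). Loxl3 shares 9.88% of its windows with Htra2, which overlaps it on the opposite strand and had a log2 fold change of 0.42 (SE 0.16, edgeR adjusted p = 0.0797). No source used here states whether counting used strand, so reads of the overlap cannot be assigned to one of them.

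Loxl4, the remaining oxidase, was the least abundant of the family. It had 8.16, 9.06 and 9.88 CPM in N129, N136 and N138, against 10.9, 12.5 and 8.82 CPM in C7, C8 and C9, and the groups overlapped. The log2 fold change of -0.25 had a 95% confidence interval of -0.63 to 0.13 (edgeR adjusted p = 0.286), which holds a fall of the size seen for Loxl1.

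The summed level of the oxidase family overlapped between the groups, whereas the share of each oxidase in it did not. The level of Loxl4 itself overlapped, and 47.7% of all tested mRNAs had levels that did not overlap. Levels of different genes are compared per length, as CPM divided by the longest annotated transcript in kilobases. Summed over the 5 oxidases this level was 63.0, 64.6 and 73.6 CPM per kilobase in N129, N136 and N138, against 62.2, 69.5 and 59.2 CPM per kilobase in C7, C8 and C9. The groups overlapped, with means of 67.1 ± 5.71 in silicosis and 63.7 ± 5.30 in control (SD, n = 3 each). Lox made up 35.3%, 34.3% and 36.4% of that sum in N129, N136 and N138, against 15.9%, 18.6% and 18.5% in C7, C8 and C9. Loxl1 made up 45.3%, 45.8% and 40.4% in the silicosis libraries and 68.1%, 63.1% and 65.6% in the controls. The per-length ratio of Lox to Loxl1 was accordingly 0.749 to 0.902 in silicosis and 0.234 to 0.294 in control libraries. The shares of Loxl2 (9.71% to 13.4% in silicosis, 6.82% to 8.62% in control), Loxl3 (means of 6.16% in silicosis and 4.79% in control) and Loxl4 (3.47% to 3.75% in silicosis, 3.98% to 4.80% in control) did not overlap either. These shares are described without a test, because 3 libraries against 3 cannot give a two-sided exact p below 0.1 and because shares of one sum move together. With median instead of longest transcript lengths the mean Lox share was 25.8% in silicosis and 13.7% in control. The mean Loxl3 share was then 29.0% in silicosis and 24.0% in control, above that of Lox in both groups, so the order of the oxidases depends on the lengths used.

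**Figure D2:**
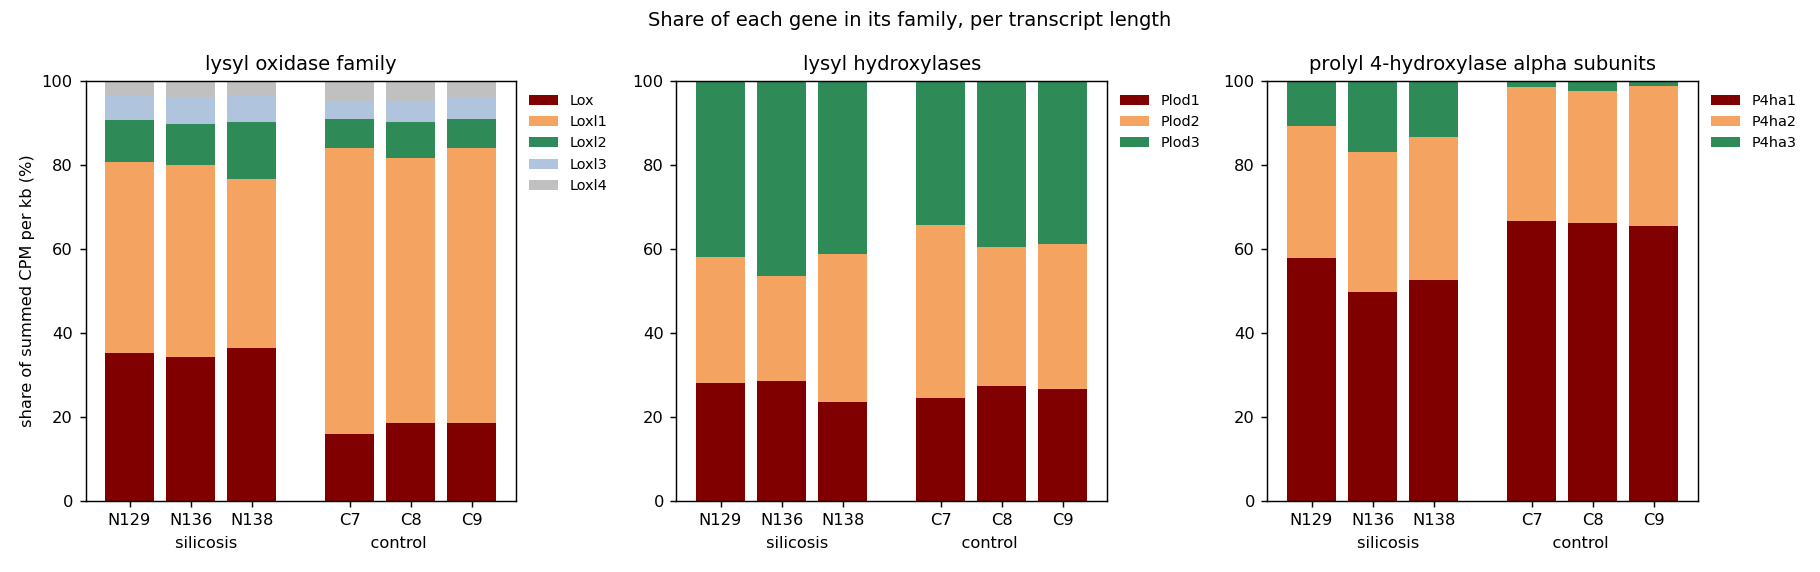
Share of each gene in the summed per-length level (CPM per kilobase, % of the family) in each library, for the lysyl oxidases, the lysyl hydroxylases and the prolyl 4-hydroxylase alpha subunits; stacked bars add to the whole family. In the 3 silicosis libraries the Lox segment is 34.3% to 36.4% and the P4ha3 segment 10.6% to 17.0%, against 15.9% to 18.6% and 1.13% to 2.36% in the 3 controls.

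P4ha3 encodes the least studied of the alpha subunits that carry the active site of prolyl 4-hydroxylase, with P4hb as the shared beta subunit. It had 423, 643 and 467 counts in N129, N136 and N138, against 61, 106 and 39 counts in C7, C8 and C9, or 11.0 to 14.7 CPM against 1.02 to 2.54 CPM. Every silicosis library was at least 4.35 times the highest control, C8. The log2 fold change of 2.93 (SE 0.31, edgeR adjusted p = 0.000236) was the largest of the 10 and lay at percentile 99.0 of all tested mRNAs. The controls were uneven, with a coefficient of variation of 45.8% against 14.4% in silicosis, and the log2 fold change was 3.35 without C8 and 2.67 without C9.

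The other prolyl 4-hydroxylase genes did not pass the test. P4ha1, the main alpha subunit in most tissues, averaged 87.0 CPM in silicosis and 111 CPM in control (log2 fold change -0.35, SE 0.13, edgeR adjusted p = 0.0724; with DESeq2 0.0436). P4ha2 averaged 40.3 CPM in silicosis and 40.8 CPM in control, a log2 fold change of -0.02 (SE 0.10). P4hb averaged 472 CPM in silicosis and 397 CPM in control (log2 fold change 0.25, SE 0.13, edgeR adjusted p = 0.187). Even so, P4ha3 remained the rarest of the alpha subunits, at 10.6%, 17.0% and 13.2% of their summed per-length level in N129, N136 and N138, against 1.51%, 2.36% and 1.13% in C7, C8 and C9. P4ha1 held 49.8% to 57.9% in silicosis and 65.5% to 66.6% in control libraries. With median transcript lengths P4ha3 held 5.96% to 9.38% in silicosis and 0.615% to 1.32% in control, and P4ha2 exceeded P4ha1 in all 6 libraries.

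Promoter sequence, 250 bases before to 50 after the annotated start, was found for 4 of the 10 genes in the RefSeq promoter table of GRCm38.p6: Loxl4, Plod1, Plod3 and P4ha3. This is an earlier build than the GRCm39 named in the submitters' processing notes. P4ha3, the steepest riser, lies on the plus strand with its window at chr7:100285270-100285569, and Loxl4, the oxidase shown beside it as one that was not called, on the minus strand with its window at chr19:42612757-42613056. Capitals mark matches, on either strand, to the 6 motifs searched.
P4ha3: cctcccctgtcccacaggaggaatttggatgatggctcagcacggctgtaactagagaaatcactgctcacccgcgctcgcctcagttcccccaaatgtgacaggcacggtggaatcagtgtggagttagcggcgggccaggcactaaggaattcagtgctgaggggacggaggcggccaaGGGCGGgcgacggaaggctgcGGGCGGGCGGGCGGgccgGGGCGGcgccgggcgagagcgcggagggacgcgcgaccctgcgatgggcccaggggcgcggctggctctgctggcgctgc
Loxl4: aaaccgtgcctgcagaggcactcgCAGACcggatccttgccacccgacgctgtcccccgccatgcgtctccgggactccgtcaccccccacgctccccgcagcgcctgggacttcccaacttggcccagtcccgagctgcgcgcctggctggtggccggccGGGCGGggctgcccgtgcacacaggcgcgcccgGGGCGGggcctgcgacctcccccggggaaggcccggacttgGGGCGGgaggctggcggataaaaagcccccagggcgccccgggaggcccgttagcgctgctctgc
The motifs were the TATA box TATAAA, the CCAAT element, the GC box written as GGGCGG, the Smad-type element written as CAGAC, the hypoxia response core written as ACGTG and the AP-1 type element written as TGANTCA. In the P4ha3 window the one motif found was GGGCGG, in 5 copies that begin 69, 48, 44, 40 and 30 bases before the start, the middle 3 overlapping each other. Loxl4 had 3 copies of GGGCGG and 1 of CAGAC. The GC box occurs in 35.7% and the Smad-type element in 49.6% of the 32851 promoter windows of the table. Both windows were rich in G and C, at 69.3% for P4ha3 and 75.0% for Loxl4. Such matches describe letters, not binding.

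The lysyl hydroxylases kept closer to control. Plod2 encodes the enzyme that hydroxylates lysines of the collagen ends, which leads to the stable crosslinks known from scar tissue. It had 53.4, 49.7 and 60.7 CPM in N129, N136 and N138, against 77.4, 63.8 and 54.5 CPM in C7, C8 and C9. The groups overlapped, and the log2 fold change was -0.26 with a 95% confidence interval of -0.57 to 0.06 (edgeR adjusted p = 0.188). That interval ends below a rise of the size seen for Lox. Of the Plod2 windows 7.19% are shared with Gm38391, which overlaps Plod2 on the opposite strand.

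Plod3, whose enzyme also adds sugars to hydroxylysine, had 67.0, 82.6 and 63.8 CPM in N129, N136 and N138, against 57.9, 68.3 and 54.9 CPM in C7, C8 and C9. N136 alone exceeded all controls, and the log2 fold change was 0.24 (95% confidence interval -0.05 to 0.52, edgeR adjusted p = 0.188). Of its windows 13.4% are shared with Znhit1, a gene on the opposite strand that overlaps it and that was lower in silicosis (log2 fold change -0.85, SE 0.13, edgeR adjusted p = 0.00174). Plod1, which acts on lysines of the helix, had 56.1, 63.3 and 45.7 CPM in the silicosis libraries N129, N136 and N138, against 51.3, 59.1 and 47.0 CPM in the controls C7, C8 and C9. Its groups overlapped throughout, with a log2 fold change of 0.07 (95% confidence interval -0.24 to 0.38) that was -0.048 without N136 and -0.0046 without C9.

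Plod3 was the most abundant lysyl hydroxylase per length in silicosis, at 41.2% to 46.5% of the family, against 34.4% to 39.5% in control libraries. With median transcript lengths Plod1 had the highest mean share instead, at 36.2% to 43.2% in silicosis and 36.5% to 40.9% in control, and Plod3 held 28.5% to 31.9% in silicosis and 23.3% to 26.8% in control. With the longest transcript lengths, Plod2 held 25.0% to 35.1% in silicosis and 33.1% to 41.2% in control. By the same lengths Plod1 held 23.6% to 28.5% in silicosis and 24.4% to 27.4% in control. For both genes the ranges of the groups overlapped.

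Tgm2 encodes tissue transglutaminase, which is abundant in endothelial cells and macrophages. It had 310.2, 392 and 275 CPM in N129, N136 and N138, against 319.5, 369 and 293 CPM in C7, C8 and C9. The silicosis libraries enclosed the whole range of the controls. The log2 fold change was -0.01, with a 95% confidence interval of -0.33 to 0.32, or 0.03 without N129, 0.10 without N138 and 0.09 without C8. Of the Tgm2 windows 18.6% are shared with Rprd1b and Gm20412, which overlap it on the opposite strand; Rprd1b had a log2 fold change of -0.16 (SE 0.09).

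Ordered by level per length in silicosis, the enzymes ran from Tgm2 (90.6 ± 16.6 CPM per kilobase) over Loxl1 (29.3 ± 0.614), Lox (23.7 ± 2.66), Plod3 (21.7 ± 3.07), Plod2 (14.9 ± 1.52), Plod1 (13.4 ± 2.15), Loxl2 (7.51 ± 2.05), P4ha3 (5.38 ± 0.774) and Loxl3 (4.14 ± 0.474) to Loxl4 (2.42 ± 0.229; SD, n = 3). Of neighbours in that order, Lox and Plod3 and likewise Plod2 and Plod1 had overlapping ranges and did not differ beyond their spread. In control the order was Tgm2 (91.0 ± 10.8), Loxl1 (41.7 ± 2.56), Plod3 (18.4 ± 2.15), Plod2 (17.8 ± 3.14), Plod1 (12.8), Lox (11.3 ± 1.51), Loxl2 (4.78 ± 1.05), Loxl3 (3.05 ± 0.359), Loxl4 (2.87 ± 0.490) and P4ha3 (0.703 ± 0.322). There the ranges of Plod3 and Plod2, of Plod1 and Lox, and of Loxl3 and Loxl4 overlapped. By these lengths Lox held rank 3 in silicosis and rank 6 in control, and P4ha3 rank 8 in silicosis and rank 10 in control. This order depends on the lengths used: with median transcript lengths Lox held rank 7 in both groups and P4ha3 rank 9 in silicosis and rank 10 in control, with Tgm2 highest and Plod1 next by mean in both.

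Within a group, several enzymes were high or low in the same library. Within silicosis, N138 was the highest library for 6 of the 10, all 5 oxidases and Plod2, and N136 for the other 4, namely Plod1, Plod3, P4ha3 and Tgm2. Plod1, Plod3 and Tgm2 were lowest in N138, at -0.25, -0.15 and -0.23 on the log2 scale from the silicosis mean, while Loxl2 was 0.43 above it there. Within control, C8 was the highest library for 9 of 10 enzymes and C9 the lowest for 8. For Loxl1 the margin within silicosis was slight, at 97.96 CPM in N138 and 97.4 CPM in N136. How many of all tested mRNAs were highest or lowest in the same libraries was not counted. The counts above therefore cannot be read as particular to the enzymes. What sets these libraries apart was not tested.

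The remaining genes of the pathway were read from the same fit. Beside the counts of these lists, 15.3% of all tested mRNAs were called higher and 16.5% lower. The lists, like the enzymes, were chosen with earlier results of these data known. The collagen, elastin and fibronectin substrates of the enzymes were mostly higher: 7 of 9 tested rose and 0 fell, with a median log2 fold change of 0.87. Col1a1, a chain of type I collagen, averaged 1124 CPM in silicosis and 554 CPM in control (log2 fold change 1.02, SE 0.17, edgeR adjusted p = 0.00245). Col5a2, a chain of type V collagen, averaged 281 CPM in silicosis and 130 CPM in control (log2 fold change 1.11, SE 0.16, edgeR adjusted p = 0.00109). Col5a3, a minor chain of type V collagen, had the largest rise of the list at 1.55 (SE 0.24). Fn1, fibronectin, rose by 0.53 (SE 0.11). The calls of Col1a2 and Col3a1, whose log2 fold changes were 0.67 and 0.89, ended without C7, at adjusted p of 0.0662 and 0.0521, and without C9, at 0.0534 and 0.0501. Col5a1 and Col11a2 did not pass, and Col2a1 and Col11a1 were below the filter.

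The oxidases were also set against 3 of these collagens. For each 100 CPM per kilobase of Col1a1, Col1a2 and Col3a1 together, the 5 oxidases summed to between 8.67 and 11.98 in silicosis libraries, against between 15.71 and 20.98 in control libraries, with no overlap. For the 3 lysyl hydroxylases the same quantity was 9.13, 7.28 and 7.68 in silicosis and 16.3, 11.9 and 15.3 in control libraries. With median transcript lengths the 5 oxidases summed to 1.54 to 2.04 in silicosis and 2.73 to 3.57 in control libraries. The 3 lysyl hydroxylases then summed to 2.62 to 3.34 in silicosis and 4.54 to 6.22 in control. Neither range overlapped, but each length is the same in every library, so this is not separate support. For Lox alone the groups overlapped, at 4.17, 2.97 and 4.36 in silicosis and 3.16, 2.91 and 3.87 in control. The summed oxidase level itself overlapped between the groups, while each of the 3 collagens below it in the ratio was called higher. These ratios are given as values without a test.

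Genes for hydroxylation, folding and export of procollagen in the endoplasmic reticulum gave no rise that passed the test: of 16 tested, 0 were higher, 3 were lower and 13 did not pass, with a median log2 fold change of -0.23. By DESeq2, 1 was higher and 5 were lower. Those that fell were P3h2, a prolyl 3-hydroxylase (log2 fold change -0.95, SE 0.13), Colgalt2, a collagen galactosyltransferase (-0.93, SE 0.12), and Mia3, which loads procollagen into transport carriers (-0.41, SE 0.09). P3h2 shares 31.1% of its windows with other genes, so its count is uncertain. Serpinh1, the collagen chaperone, averaged 292 CPM in silicosis and 340.5 CPM in control (log2 fold change -0.22, SE 0.17).

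The proteinases that trim procollagen went both ways, with 2 of 7 tested higher, 2 lower and a median of -0.38. Bmp1, the procollagen C-proteinase, which also activates Lox, averaged 127 CPM in silicosis and 77.5 CPM in control (log2 fold change 0.71, SE 0.14, edgeR adjusted p = 0.00437). Adamts2, the N-proteinase, rose by 0.60 (SE 0.14). The proteinase enhancers were lower. For Pcolce the log2 fold change was -0.50 (SE 0.09). Pcolce2 averaged 91.7 CPM in silicosis and 258 CPM in control (log2 fold change -1.49, SE 0.16, edgeR adjusted p = 0.000295).

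Among the other genes of the transglutaminase family, 2 of 5 tested rose and 0 fell, beside 15.3% and 16.5% of all tested mRNAs. Tgm1, known from cornified epithelia, averaged 11.9 CPM in silicosis and 4.15 CPM in control (log2 fold change 1.52, SE 0.20, edgeR adjusted p = 0.000689). F13a1, the coagulation factor XIII subunit made by macrophages and platelets, had a log2 fold change of 0.81 (SE 0.27, edgeR adjusted p = 0.0476). That call ended with limma-voom (adjusted p = 0.055) and without N129 (0.0516), N138 (0.116), C7 (0.146) or C8 (0.122).

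**Figure D3:**
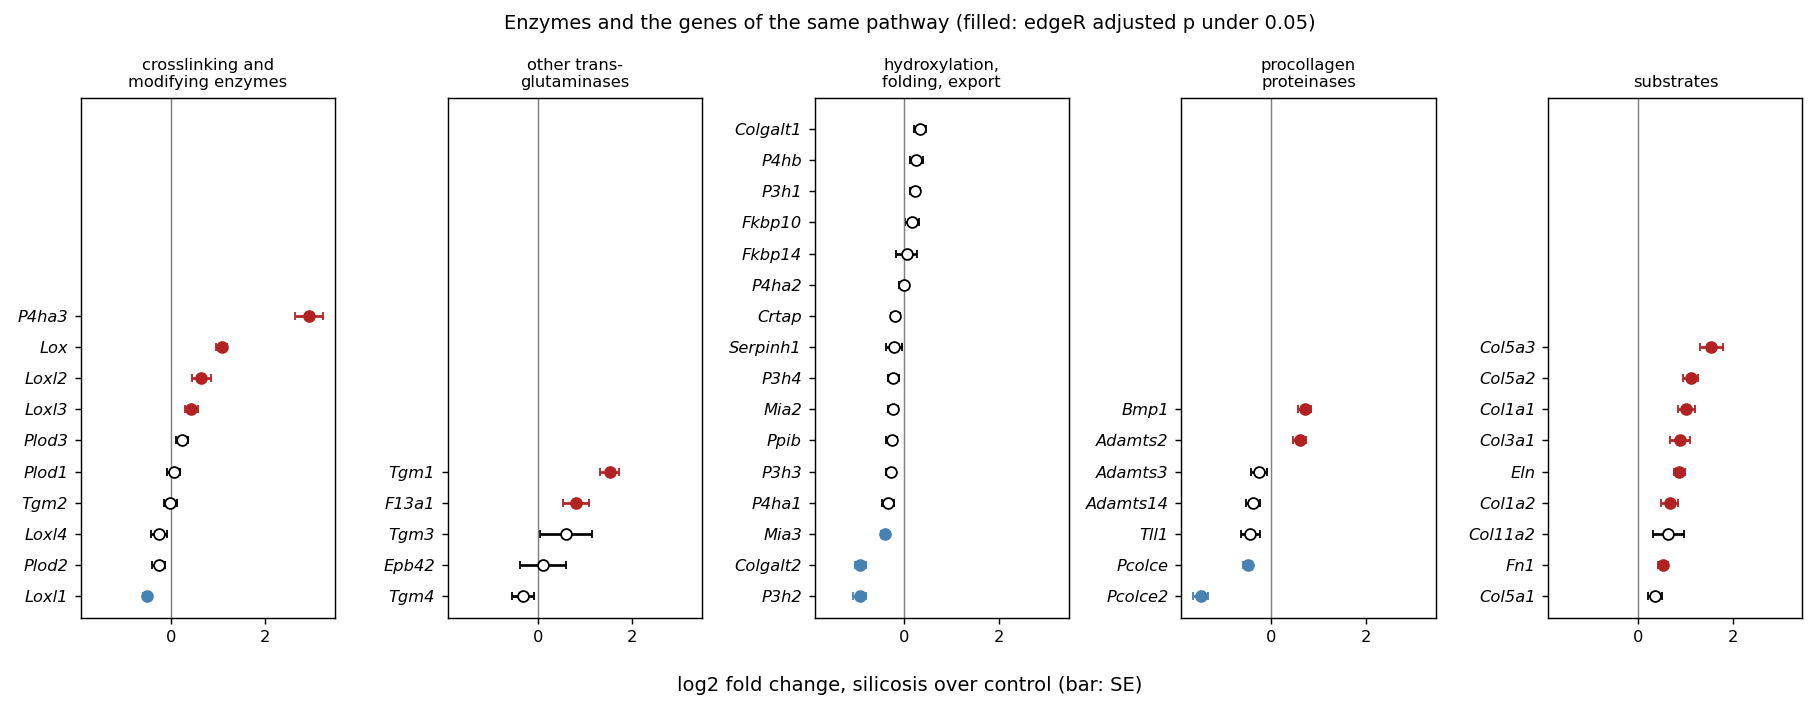
Log2 fold changes, silicosis over control, of the 10 enzymes and of tested genes of 4 lists of the same pathway; points are edgeR estimates, bars the SE, filled points passed an adjusted p under 0.05 (red higher, blue lower). Among the enzymes P4ha3 (2.93) and Lox (1.08) lie farthest right and Loxl1 (-0.51) farthest left, and 7 of 9 substrates are filled on the right.

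**Figure D4:**
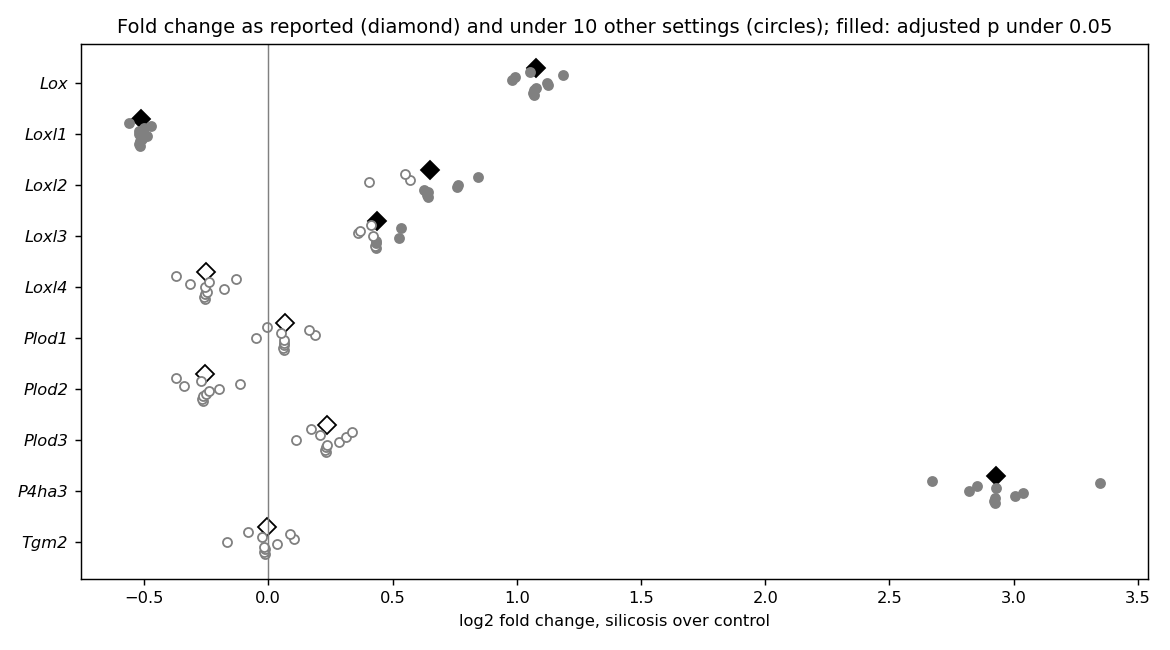
Log2 fold change of each enzyme as reported (diamond) and under 10 other settings (circles: other scalings, filters and tools, and each library left out), filled where the adjusted p was under 0.05. Lox, Loxl1 and P4ha3 are filled in all 10, Loxl2 in 7 and Loxl3 in 5, and the other 5 enzymes in none.

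In the authors' deposited table, log2 fold changes of the enzymes had the same sign as here for 10 of 10. That table marks P4ha3 (2.92) and Lox (1.07) as up and none of the others as changed, although its adjusted p was 4.63e-06 for Loxl1, 0.00969 for Loxl2 and 0.0313 for Loxl3.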

How the data were processed

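Raw whole-number counts per gene and library were deposited by the authors in an mRNA table without normalisation. Without assigning roles, the submitters' processing notes list the GRCm39 build and the tools Bowtie2, HISAT2, DESeq2 1.36.0, Trimmomatic 0.39 and featureCounts 2.0.0; no source used here gives the strand setting or annotation. The authors' deposited comparison table gives log2 fold changes and adjusted p-values. The lncRNA and circRNA tables were not used here.

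All 15808 mRNAs kept by filterByExpr were fitted with edgeR 4.0.16 in R 4.3.3 (TMM scaling, two-sided quasi-likelihood F test, Benjamini-Hochberg adjustment over all tested mRNAs, threshold 0.05), and the enzymes' rows were read from that fit. The SE is the log2 fold change divided by the square root of F, and intervals use the test's degrees of freedom. Scripts were tested on simulated data. Within groups, chi-square per degree of freedom between libraries was 15.0 to 79.0, so the libraries of a group were not copies of one another. That does not show that they came from separate mice. Lengths, overlaps and shared 50-base windows (every 5 bases, both strands) came from GENCODE transcripts of GRCm38. Alternatives were DESeq2 1.42.0, its size factors, limma-voom (limma 3.58.1), no filter, a 2-fold minimum, median transcript lengths and each library left out. The enzymes and lists were chosen with earlier results of these data known. Named genes were the enzymes, called genes of 5 pathway lists (at least the largest change in each direction), and the 3 nearest genes by pattern for the called enzymes with the highest and lowest fold change; others were named after their values were seen.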

Additional observations from a re-analysis of the deposited data

How the results depend on the processing

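Lox, P4ha3 and Loxl1 kept their direction and their call in each of 10 other settings (every alternative but the 2-fold minimum and the transcript lengths), with log2 fold changes of 0.98 to 1.19, 2.67 to 3.35 and -0.56 to -0.47. Leaving out 1 library at a time gave 2 to 4 enzymes higher, 1 to 2 other transglutaminases higher, 0 to 1 endoplasmic reticulum genes higher and 2 to 4 fibril surface genes lower, from 3513 to 5209 mRNAs called in all, a log2 fold change of -0.16 to 0.10 for Tgm2 and of -0.048 to 0.19 for Plod1; fewer libraries were fitted in each, and the cause was not tested further. DESeq2 called 1 endoplasmic reticulum gene higher and 5 lower, and limma-voom 1 other transglutaminase. With a 2-fold minimum, which removes smaller changes by construction, 1331 mRNAs were called, with 64.0% of them higher against 48.2% without it. That left 2 enzymes higher and 0 lower, 1 other transglutaminase higher, 0 endoplasmic reticulum genes lower, 0 procollagen proteinases higher and 1 lower, 3 substrates higher and 2 fibril surface genes higher. Median transcript lengths, which count short fragments, gave mean shares in silicosis and control of 25.8% and 13.7% for Lox, 31.1% and 49.5% for Loxl1 and 7.51% and 0.924% for P4ha3 and 29.7% and 25.5% for Plod3, and per 100 of the 3 collagens 1.87 and 3.22 units of oxidases and 2.87 and 5.49 of lysyl hydroxylases. No paired analysis was possible because the groups share no replicate numbers.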

Other observations

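Proteins that sit on collagen and elastic fibres were read as a further list. Of its 11 tested genes 4 were higher in silicosis, 2 were lower and 5 did not pass (median log2 fold change 0.01). Of all tested mRNAs 15.3% were called higher and 16.5% lower. Thbs2, a thrombospondin, averaged 44.0 CPM in silicosis and 4.89 CPM in control, a log2 fold change of 3.17 (SE 0.37), and Thbs1 rose by 0.97 (SE 0.10). Lum and Fmod, small proteoglycans that bind collagen fibrils and are known to affect where crosslinks form, rose by 1.46 (SE 0.28) and 0.64 (SE 0.16); the call of Fmod ended without C7 (edgeR adjusted p = 0.061). Prelp and Ogn, proteoglycans of the same family, had log2 fold changes of -1.41 (SE 0.10) and -1.30 (SE 0.10). Postn, periostin, which is known to bind Bmp1 and so favour Lox activation, averaged 334 CPM in silicosis and 339.7 CPM in control (log2 fold change -0.02, SE 0.10).

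By pattern over the 6 libraries, measured as the root-mean-square distance of mean-centred log2 CPM among 14174 other mRNAs, the genes nearest to P4ha3 were Timp1 (0.12), Lhfpl2 (0.28) and Cd14 (0.28). Those nearest to Loxl1 were Luzp1 (0.03), Sh3bp4 (0.03) and Rdx (0.03). With 3 libraries a group, any gene with a like fold change and small spread comes near, so this list is a description.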
